A study of Mus musculus with 59 samples.

Results

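Tumors of mice exposed to either of a pair of parabens, methylparaben and propylparaben, were pooled as one side of 40 libraries and set against the 19 vehicle libraries, which together are all 59 libraries of the series. Samples were placed by their treatment label alone. The comparison asks which transcripts differed with both esters in common. All groups were primary mammary tumors of mice hemizygous for polyoma middle T (genotype PyMT (+/-), line B6.FVB-Tg(MMTV-PyVT)634Mul/LellJ), in which the mouse mammary tumor virus promoter drives the viral oncogene in mammary epithelium. Total RNA came from flash-frozen pieces of tumor, so every library holds tumor cells, stroma and any neighboring tissue in the piece. The treatment groups were vehicle (n = 19), methylparaben (n = 20) and propylparaben (n = 20). The sources used here give no dose, route, duration or age of the mice. Nor do they state that each library came from a separate animal, so p-values reflect only how these samples spread, which may be technical.

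Parabens are alkyl esters of para-hydroxybenzoic acid that are used as preservatives, and methylparaben and propylparaben differ in the length of the alkyl chain on the ester. Both are known as weak ligands of the estrogen receptors in cell assays. Middle T is a membrane-bound scaffold that recruits Src family kinases, phosphatidylinositol 3-kinase (PI3K) and Shc, and so engages the pathways that the insulin and ERBB receptors also use. Tumors of this model begin as hyperplasia with luminal, estrogen receptor positive features and are known to lose the receptor and hormone dependence as they progress.

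Each library held 1166502 to 2032789 reads on genes and 307255 to 1059351 reads in introns. The keratin genes Krt8 and Krt18 and Epcam, which mark luminal epithelium, were detected in every library, with lowest normalized counts of 37.1, 67.3 and 235. Levels are normalized counts, that is reads scaled for depth and by a factor per library. Across libraries the first principal component of the gene levels took 19.1% of the variance, and 7 libraries lay lowest on it: vehicle replicates 7, 8, 10, 13, 14 and 19 and propylparaben replicate 1. The same 7 were lowest on the first component of the intron levels. The count of 7 was taken from an earlier analysis of these data and marks no clear gap. Vehicle replicate 13, the highest of the 7, lay at -36.3, and the next library, vehicle replicate 1, at -31.8. They held 6 of the 7 highest mean levels of the mitosis genes among the 59 libraries. The sign of the component had been set to put high mitosis levels at its low end. That overlap is therefore partly built in. These 7 libraries also held 6 of the 7 lowest mean levels of the hormone receptor genes. The component itself differed between the sides (means of 7.87 with parabens and -16.6 with vehicle, two-sided permutation test, p = 0.00064, Benjamini-Hochberg adjusted p = 0.00448 over 7 library measures). Of the other 6 measures, the share of reads aligned to several places had the smallest p, at 12.5% ± 0.80 with parabens and 13.2% ± 1.28 with vehicle (SD, n = 40 and 19, permutation test, adjusted p = 0.0575). Because 6 of the 7 low libraries are vehicle, most fold changes and list medians below are also given without the 7 (39 paraben and 13 vehicle libraries), a fit in which no gene passed. The 7 were picked by the same gene levels that are tested, at the end where vehicle libraries lay. Smaller differences without them are therefore partly built into that choice. Of 143 named genes that passed, 86 lost their call when some single library was left out. What placed the 7 libraries low on the component was not tested.

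With limma on log2(normalized count + 1), 1010 of 14487 tested genes passed an adjusted p under 0.05 (Benjamini-Hochberg), which is 6.97% of them. Of these, 501 rose with parabens (3.46% of tested genes) and 509 fell (3.51%). The list counts below are to be read beside these shares. The changes were small: absolute log2 fold changes of passing genes ran from 0.12 to 1.66 with a median of 0.38, and 16 exceeded 1. The ranges of the sides overlapped for every passing gene. In the median passing gene 34 of the 40 paraben libraries lay beyond the vehicle median. Of the passing genes 966 were protein coding, and 447 overlap a gene on the other strand. The same counts were not made over all tested genes, so they show nothing particular to the passing genes. The count tests on reads gave 1062 genes with edgeR, 372 higher and 690 lower where limma gave 501 and 509, and 1246 with DESeq2. Without the 7 libraries low on the first component there were 0 genes with limma (1013 at an unadjusted p under 0.05 and a smallest adjusted p of 0.545).

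**Figure D1:**
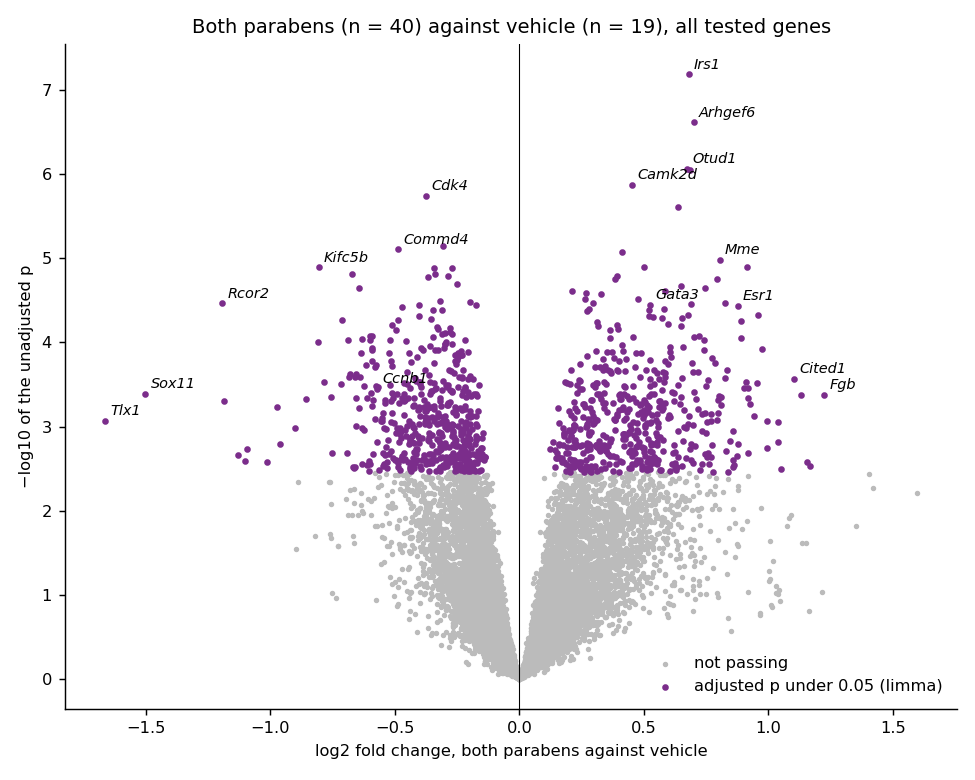
Each point is 1 of 14487 genes, with the log2 fold change of both parabens against vehicle on the x axis and the negative log10 of the unadjusted p (limma) on the y axis. Purple points are the 1010 genes that passed, and named genes include Irs1 at the top and Tlx1 with the lowest fold change.

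Irs1, a docking protein that insulin and IGF1 receptors phosphorylate to recruit PI3K, had the smallest p of all genes. Its normalized count was lowest at 29.99, had a median of 56.97 and reached 146 in vehicle tumors, and ran from 57.8 through a median of 102 to 158 with parabens. All 40 paraben libraries lay above the vehicle median, although the highest vehicle library was close to the highest paraben library. Irs1 rose by log2 0.68 ± 0.11 (SE, limma adjusted p = 0.000928), from 65.9 ± 27.5 to 101 ± 22.7 (SD). Without the 7 libraries, of which 4 were among the 7 lowest for Irs1, the difference was 0.48 (unadjusted p = 7.9e-05), the smallest p of that fit (adjusted p = 0.545). Its intronic reads rose as well, by log2 0.63 ± 0.12 (adjusted p = 0.0246).

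Of 30 tested genes of insulin and IGF signaling, 4 rose and 1 fell, with a median log2 fold change of 0.11 beside 0.00 for all genes. Pik3r1, which encodes the p85 alpha regulatory subunit of PI3K, had vehicle values of 268, 606 and 858 (lowest, median, highest) and paraben values of 427, 724 and 990. It rose by log2 0.43 ± 0.11 (adjusted p = 0.0171), and the difference was 0.20 without the 7 libraries. Pik3r3, which encodes the p55 gamma regulatory subunit, went the other way: 23.0, 37.5 and 83.6 with vehicle, and 11.3, 23.3 and 65.1 with parabens. It fell by 0.69 ± 0.16 on the log2 scale (adjusted p = 0.0151), and by 0.40 without the 7. The insulin receptor gene Insr rose by log2 0.27 ± 0.09 (adjusted p = 0.0464) and the forkhead factor gene Foxo4, a target of Akt, by 0.25 ± 0.08 (adjusted p = 0.0439). The IGF1 receptor gene Igf1r, at log2 0.28 ± 0.16, did not pass (adjusted p = 0.278). Irs1, Pik3r1 and Pik3r3 kept their calls with any 1 library left out, while Insr and Foxo4 lost them in some such fits (adjusted p up to 0.110 and 0.0893). Without the 7, Insr, Foxo4 and Erbb4 differed by 0.22, 0.24 and 0.40. Of 17 partners of middle T, Pik3r1 alone passed. Of 14 ERBB receptors and ligands the neuregulin receptor gene Erbb4 alone passed (log2 0.81 ± 0.22, adjusted p = 0.0218, 0.0545 without vehicle replicate 10). Over all tested genes 6.97% passed, and 1 gene in lists of these sizes is near that share.

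Several nuclear receptor genes and luminal transcription factor genes rose. Of 14 tested hormone receptor genes 4 rose and none fell, beside 3.46% of all tested genes that rose. Their median log2 fold change was 0.23, and 0.10 without the 7 libraries. Esr1, which encodes estrogen receptor alpha, ran from 1.23 through a median of 10.7 to 29.99 in vehicle tumors and from 4.35 through 18.3 to 44.5 with parabens. It was above the vehicle median in 36 of 40 paraben libraries, and 5 of the 7 libraries low on the first component were among its 7 lowest. Esr1 rose by log2 0.88 ± 0.20 (adjusted p = 0.0123), or 0.45 without the 7 (unadjusted p = 0.0141). The thyroid hormone receptor gene Thrb rose by 0.68 ± 0.19 (adjusted p = 0.0255), though not without vehicle replicate 8 (0.0709), and differed by 0.29 without the 7. Nr3c1, the glucocorticoid receptor gene, made a smaller and more even rise, by log2 0.26 ± 0.06 (adjusted p = 0.0123). Vehicle values of Nr3c1 were 70.3, 93.4 and 149 (lowest, median, highest) and paraben values 94.3, 115 and 162, with all 40 paraben libraries above the vehicle median. The difference of Nr3c1 was 0.17 without the 7. Pgr, the progesterone receptor gene and a target of estrogen receptor alpha, did not pass: its difference was log2 0.80 ± 0.30 (adjusted p = 0.0821), and 0.04 without the 7.

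Among 17 genes of the estrogen and progesterone response 3 rose and none fell, with a median of 0.25 (0.09 without the 7). Cited1, a transcriptional coactivator of the estrogen receptor, had vehicle values of 0.328, 11.04 and 65.8 (lowest, median, highest) and paraben values of 5.32, 21.6 and 67.7. It rose by log2 1.10 ± 0.29 (adjusted p = 0.0200) and differed by 0.48 without the 7. The secreted glycoprotein gene Stc2 rose by 0.86 ± 0.25 (adjusted p = 0.0300). All 7 low libraries were the 7 lowest for Stc2, and the difference without them was 0.21. Nrip1, a corepressor of nuclear receptors, rose by 0.25 ± 0.08 (adjusted p = 0.0361), and differed by 0.12 without the 7. Stc2 and Nrip1 lost their calls with some library left out (adjusted p up to 0.0801 and 0.0798). Greb1, among the most estrogen-responsive genes of breast cancer cells, differed by -0.06 ± 0.20 (adjusted p = 0.886). The list thus held genes with fold changes near 0 beside those that passed.

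Of 19 luminal transcription factor genes 6 rose, Gata3, Esr1, Stat5a, Stat5b, Msx1 and Elf5, and none fell (median 0.14, and 0.11 without the 7). Gata3, which specifies luminal cells, ranged from 131 through a median of 327 to 588 in vehicle tumors and from 285 through 480 to 608 with parabens. The paraben libraries fill the upper part of the vehicle range, and 5 of the 7 low libraries were among the 7 lowest. Gata3 rose by log2 0.52 ± 0.12 (adjusted p = 0.0123), or 0.21 without the 7. Stat5b, which with Stat5a relays prolactin signals, rose by 0.38 ± 0.09 (adjusted p = 0.0170). The homeobox gene Msx1, at 2.45 ± 1.54 with vehicle, rose by 0.77 ± 0.19 (adjusted p = 0.0168). Elf5, an alveolar factor downstream of prolactin, rose by 0.24 ± 0.08 (adjusted p = 0.0446, up to 0.0977 with 1 library left out). Without the 7, Stat5a, Stat5b, Msx1 and Elf5 differed by 0.27, 0.18, 0.47 and 0.14. Foxa1, which opens chromatin for the estrogen receptor, did not pass, at 0.79 ± 0.26 (adjusted p = 0.0534). Prlr, the prolactin receptor gene, was at 0.39 ± 0.15 (adjusted p = 0.0856). Among 14 milk and secretory genes Csn3 (kappa casein), Muc1 and Plet1 rose by log2 0.52, 0.42 and 0.46 (adjusted p = 0.0200, 0.0310 and 0.0149), and differed by 0.14, 0.30 and 0.24 without the 7. Csn3 and Muc1 lost their calls with some library left out (adjusted p up to 0.0502 and 0.0734). Csn2 (beta casein) differed by -0.57 ± 0.36 and did not pass.

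**Figure D2:**
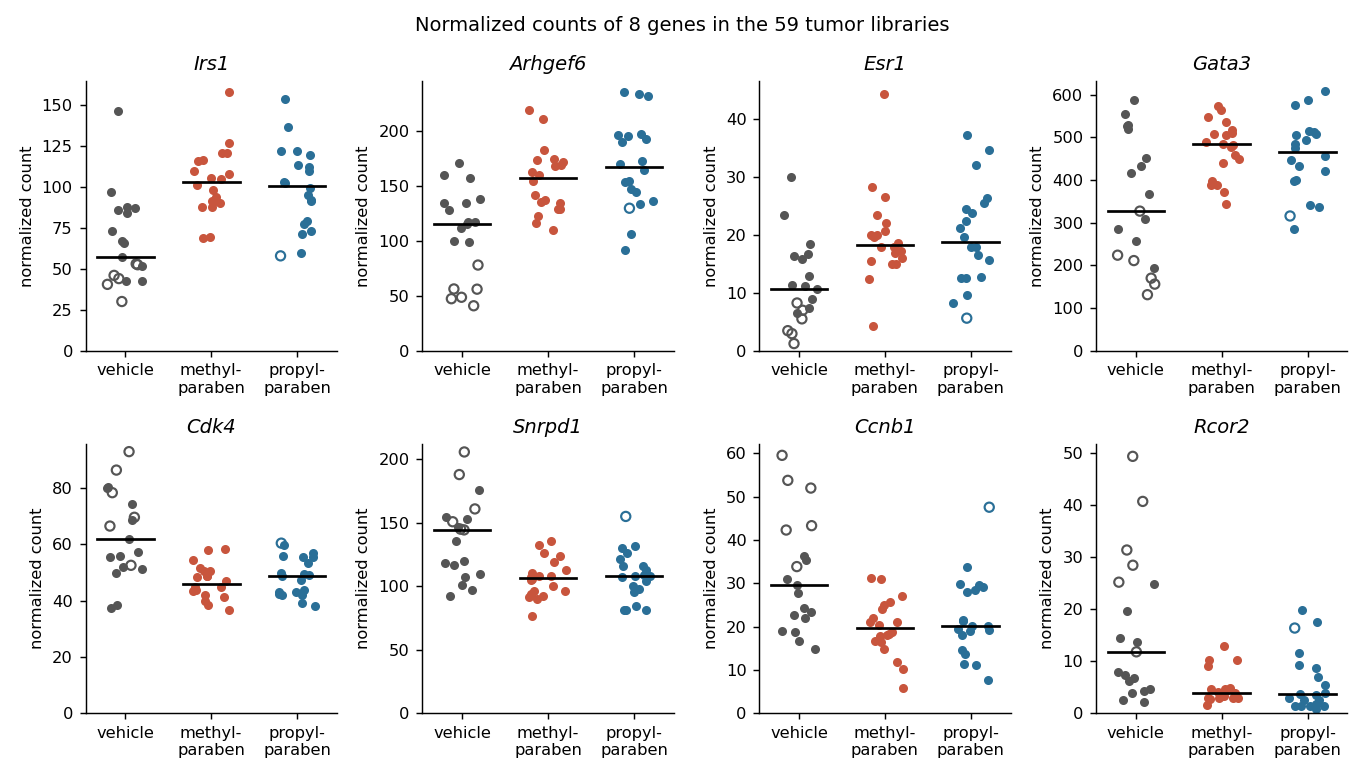
Points show the normalized count of 8 genes in each library of the vehicle (n = 19), methylparaben (n = 20) and propylparaben (n = 20) groups, with a bar at the group median. Open circles are the 7 set-apart libraries, which hold many of the lowest Arhgef6 and Esr1 values and of the highest Ccnb1 and Rcor2 values.

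The other genes that rose with very small p had varied functions. Arhgef6 encodes alpha-PIX, an exchange factor that activates Rac and Cdc42 at focal adhesions. It had vehicle values of 40.8, 115 and 171 (lowest, median, highest) and paraben values of 91.6, 161 and 235. Arhgef6 rose by log2 0.70 ± 0.12 (adjusted p = 0.00174). Of its 7 lowest libraries 6 were among the 7 low on the first component, and the difference without those 7 was 0.32. Of 22 Rac and Cdc42 regulators, Arhgef6, Pak3 and Parva rose and none fell. Pak3 and Parva lost their calls with some library left out (adjusted p up to 0.109 and 0.104). The ligand gene Pdgfd was near the detection floor, at 2.45 ± 1.15 with vehicle and 4.43 ± 1.38 with parabens, and rose by 0.69 ± 0.13 (adjusted p = 0.00324, 0.49 without the 7). Of 7 PDGF ligands and receptors Pdgfra also rose (0.54 ± 0.17, adjusted p = 0.0433, up to 0.108 with 1 library left out), and all 7 had fold changes above 0 (median 0.33, and 0.22 without the 7).

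Otud1, a deubiquitinase gene, had vehicle values of 4.21, 6.99 and 22.3 (lowest, median, highest) and paraben values of 7.69, 14.4 and 20.6. All 40 paraben libraries lay above the vehicle median, and Otud1 rose by log2 0.67 ± 0.12 (adjusted p = 0.00324, 0.47 without the 7). Camk2d, which encodes a subunit of calcium and calmodulin dependent kinase II, rose by 0.45 ± 0.08 (adjusted p = 0.00383), from a median of 62.0 to 77.0. Ppp3ca, the catalytic subunit of the phosphatase calcineurin, rose by 0.41 ± 0.08 (adjusted p = 0.0111), from a median of 326 to 420. Without the 7, Camk2d and Ppp3ca differed by 0.23 and 0.16. In a list of calcineurin and CaMKII genes drawn up after these values were seen, 4 of 15 rose and none fell, the other 2 being the calcineurin-regulated factor genes Nfatc1 and Nfatc2. Nfatc1 and Nfatc2 lost their calls with some library left out (adjusted p up to 0.112 and 0.0689). Gprin3 rose by 0.64 ± 0.12 (adjusted p = 0.00503) and kept 0.53 without the 7. Mme, a membrane metallopeptidase of myoepithelial and stromal cells, rose by 0.80 ± 0.17 (adjusted p = 0.0111) and kept 0.42. The 16 genes of smallest p, 8 a direction, all passed in each of the 59 fits with 1 library left out (highest adjusted p of 0.0322). They were picked by p in these same libraries, so that outcome was largely built in. None of them passed without the 7.

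Genes of the cell division cycle were lower with parabens. Of 25 mitosis and spindle genes 13 fell and none rose, beside 3.51% of all tested genes that fell, and all 25 had fold changes below 0 (median -0.42). Without the 7 libraries the median was -0.18 and none passed. Ccnb1, which encodes cyclin B1, the activator of Cdk1 at mitotic entry, had vehicle values of 14.8, 29.6 and 59.6 (lowest, median, highest) and paraben values of 5.98, 20.1 and 47.6. The values overlap widely, and 34 of 40 paraben libraries lay below the vehicle median. Ccnb1 fell by 0.57 ± 0.15 on the log2 scale (adjusted p = 0.0206, 0.0502 without vehicle replicate 10), and by 0.31 without the 7. Ccna2 (cyclin A2) fell by 0.45 ± 0.11 (adjusted p = 0.0188), from a median of 64.3 to 45.9. Kif23, a kinesin of the central spindle needed for cytokinesis, fell by 0.59 ± 0.14 (adjusted p = 0.0149), from a median of 24.0 to 15.9. Sgo1, which protects centromeric cohesion, fell by 0.57 ± 0.15 (adjusted p = 0.0202). Without the 7, Ccna2, Kif23 and Sgo1 differed by -0.24, -0.33 and -0.35. For each of these 4 genes, 6 of the 7 libraries low on the first component were among the 7 highest. The low end had been set as the end of high mitosis levels, so this is partly built in. Mki67, the proliferation marker, differed by -0.32 ± 0.12 and did not pass (adjusted p = 0.0757). In these bulk samples fewer cells of a kind and less RNA per cell cannot be told apart.

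Promoters of mitosis genes are known for CCAAT boxes, bound by NF-Y, and for the cell cycle homology region with the letters TTTGAA. The 250 bases before the transcription start are shown for 4 genes that fell, from RefSeq (GRCm38.p6), to show how these letters lie in genes that moved together; Ccnb2 (cyclin B2), Cdk1 and Cdc20, an activator of the anaphase-promoting complex, were chosen after their values were seen because they hold both motifs. Capitals mark CCAAT and TTTGAA on either strand. The stretches are chr9:70421555-70421804 for Ccnb2, chr10:69352913-69353162 for Cdk1, chr4:118437344-118437593 for Cdc20 and chr9:61946800-61947049 for Kif23, all on the minus strand.
Ccnb2: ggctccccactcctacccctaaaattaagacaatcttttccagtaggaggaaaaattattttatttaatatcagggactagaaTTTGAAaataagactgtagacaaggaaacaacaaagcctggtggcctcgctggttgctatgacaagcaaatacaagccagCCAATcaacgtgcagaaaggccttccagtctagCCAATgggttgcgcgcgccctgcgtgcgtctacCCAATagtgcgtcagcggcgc
Cdk1: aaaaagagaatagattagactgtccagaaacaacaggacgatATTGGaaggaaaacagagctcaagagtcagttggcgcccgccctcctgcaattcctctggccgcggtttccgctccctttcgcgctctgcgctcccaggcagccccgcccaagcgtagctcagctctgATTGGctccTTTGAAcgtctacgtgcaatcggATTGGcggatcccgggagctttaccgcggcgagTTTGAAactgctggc
Cdc20: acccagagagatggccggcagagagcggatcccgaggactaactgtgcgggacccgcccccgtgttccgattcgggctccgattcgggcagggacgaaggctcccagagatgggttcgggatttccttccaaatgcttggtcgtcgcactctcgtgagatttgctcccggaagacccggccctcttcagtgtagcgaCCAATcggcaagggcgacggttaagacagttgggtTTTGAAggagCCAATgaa
Kif23: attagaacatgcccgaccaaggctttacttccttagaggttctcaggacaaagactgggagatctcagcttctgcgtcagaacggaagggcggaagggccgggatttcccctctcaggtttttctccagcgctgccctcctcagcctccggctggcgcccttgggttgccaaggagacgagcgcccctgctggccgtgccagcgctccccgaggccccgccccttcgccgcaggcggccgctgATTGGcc
Ccnb2, Cdk1 and Cdc20 fell by 0.51, 0.44 and 0.55 on the log2 scale (adjusted p = 0.0214, 0.0270 and 0.0260), and by 0.31, 0.23 and 0.22 without the 7. Of the 13 mitosis genes that fell 12 had an entry in the promoter table, and 9 of these held CCAAT and 3 held TTTGAA. Of the 22 promoters of the tested mitosis list 77.3% held CCAAT and 36.4% held TTTGAA, beside 35.1% and 10.9% of the 13552 promoters of tested genes. Those promoters covered 10604 of the 14487 tested genes, with a whole chromosome left out. These letters describe the stretches and show nothing of what is bound there.

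DNA replication genes moved the same way. Of 25 tested, 8 fell and none rose, and all 25 had fold changes below 0 (median -0.29, and -0.11 without the 7). Rfc3, a subunit of the clamp loader, had vehicle values of 19.1, 33.8 and 53.4 (lowest, median, highest) and paraben values of 16.4, 25.1 and 41.8, and fell by 0.34 ± 0.09 on the log2 scale (adjusted p = 0.0176). The licensing factor gene Cdt1 fell by 0.40 ± 0.10 (adjusted p = 0.0202), the DNA polymerase epsilon gene Pole by 0.59 ± 0.16 (adjusted p = 0.0234) and the origin recognition gene Orc1 by 0.55 ± 0.16 (adjusted p = 0.0270). Without the 7, Rfc3, Cdt1, Pole and Orc1 differed by -0.26, -0.20, -0.41 and -0.37, and Pole and Orc1 lost their calls with some library left out (adjusted p up to 0.0613 and 0.0733). Of 21 homologous recombination genes 4 fell, Parpbp, Rad54b, Bard1 and Blm, and none rose (median -0.27, and -0.11 without the 7). Rad54b, Bard1 and Blm lost their calls with some library left out (adjusted p up to 0.0750, 0.0740 and 0.0943). Parpbp, which restrains recombination, fell by 0.67 ± 0.14 (adjusted p = 0.0111) and by 0.46 without the 7. Of 10 tested histone genes 3 fell, led by Hist3h2ba (by 0.81 ± 0.19, adjusted p = 0.0152). Histone genes are near-identical copies whose reads the counting could have split.

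The G1 kinase gene Cdk4, partner of the D cyclins, had the smallest p among genes that fell. Its vehicle values were 37.3, 61.8 and 92.9 (lowest, median, highest) and its paraben values 36.8, 47.8 and 60.4, so no paraben library reached the vehicle median. Cdk4 fell by 0.38 ± 0.07 on the log2 scale (adjusted p = 0.00434) and by 0.27 without the 7 (unadjusted p = 0.000558). Among 17 G1 cyclins and inhibitors Ccne1 (cyclin E1) fell by 0.66 ± 0.21 (adjusted p = 0.0466) and Cdkn1b, which encodes the inhibitor p27, by 0.17 ± 0.05 (adjusted p = 0.0412). An inhibitor was thus lower along with the kinase gene Cdk4 and a cyclin gene. Ccne1 and Cdkn1b lost their calls with some libraries left out (adjusted p up to 0.104 and 0.0995). Of the passing genes 5 had all 40 paraben libraries on one side of the vehicle median: Irs1, Otud1 and Nr3c1 above it, Cdk4 and Chchd4, an importer of mitochondrial intermembrane proteins, below it. Chchd4 was picked out after its values were seen. The count of 5 was not set beside the same count over all tested genes.

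Some genes for RNA processing, ribosomes, protein folding and protein breakdown were lower by smaller amounts. Snrpd1, a core Sm protein of the spliceosome, had vehicle values of 92.1, 144 and 206 (lowest, median, highest) and paraben values of 76.4, 108 and 155, with 39 of 40 paraben libraries below the vehicle median. It fell by 0.34 ± 0.07 on the log2 scale (adjusted p = 0.0111) and by 0.22 without the 7. Lsm4 fell by 0.34 ± 0.07 (adjusted p = 0.0111), and Smn1, whose protein assembles Sm rings on small nuclear RNAs, by 0.31 ± 0.06 (adjusted p = 0.0111). Rtraf, part of the tRNA ligase complex, fell by 0.27 ± 0.06 (adjusted p = 0.0111). Lists drawn up after these values were seen gave 8 of 20 Sm and Lsm genes that fell (median -0.18), 4 of 8 subunits of the CCT chaperonin, which folds actin and tubulin (median -0.19), 5 of 24 genes of RNA polymerase I and the nucleolus (median -0.15) and 3 of 31 proteasome genes (median -0.11), with none that rose in any of the 4. Their selection makes these counts a description. Of 25 cytosolic ribosomal protein genes, a family with many processed copies, 4 fell (Rpl8, Rps3 and Rpsa among them, by 0.20, 0.22 and 0.23) and all 25 lay below 0 (median -0.16, and -0.09 without the 7). Of 19 mitochondrial ribosomal protein genes 2 fell (Mrps18a and Mrpl17, both by 0.24). The signs of these medians were the same with median-of-ratios scaling and with quantile normalization, but quantile normalization gave 7 proteasome and 6 CCT genes that fell, and median-of-ratios scaling 2 proteasome genes. Rpl8, Rps3, Rpsa, Mrps18a and Mrpl17 lost their calls with some library left out (adjusted p of up to 0.0651, 0.0885, 0.0861, 0.0563 and 0.107). Commd4, a subunit of the Commander complex for endosomal sorting, fell by 0.49 ± 0.10 (adjusted p = 0.0111) and kept most of its difference without the 7 (by 0.44, unadjusted p = 0.000263).

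The largest fold changes belonged to genes of low or patchy level. Sox11, a transcription factor of embryonic mammary and neural cells, had vehicle values of 5.25, 62.0 and 263 (lowest, median, highest) and paraben values of 3.34, 14.7 and 148. It fell by 1.503 ± 0.40 on the log2 scale (adjusted p = 0.0214, 0.0504 without vehicle replicate 8), and by 1.10 without the 7. Tlx1, a homeobox gene, was at 0 in the median paraben tumor and at 2.38 in the median vehicle tumor, and fell by 1.66 ± 0.47 (adjusted p = 0.0270), and by 0.63 without the 7. Rcor2, a scaffold of the CoREST demethylase complex, had vehicle values of 2.14, 11.8 and 49.3 and paraben values of 0.912, 3.83 and 19.9. It fell by 1.19 ± 0.27 (adjusted p = 0.0123), and by 0.66 without the 7. Of 12 CoREST complex genes Hmg20b and Zmym2 also fell, by 0.27 and 0.18, and the median over the 12 was -0.05. Wif1, a secreted inhibitor of Wnt ligands, reached 882 in vehicle replicate 4 and no more than 98.6 in any other library. It fell by 1.18 ± 0.32 (adjusted p = 0.0222) and by 1.15 without the 7, and it passed in all 59 fits with 1 library left out. Kifc5b fell by 0.81 ± 0.17 (adjusted p = 0.0111), but is a near copy of Kifc1. Whether reads of these genes were told apart was not tested, so its level is uncertain. Faah, a hydrolase of fatty acid amides, was the one gene of 16 tested ester and drug metabolizing enzymes that passed, and fell by 0.72 ± 0.19 (adjusted p = 0.0202), or by 0.43 without the 7. The other 15 enzymes had fold changes above 0 without passing, and the median of the 16 was 0.39 (0.17 without the 7).

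Among large rises the fibrinogen genes Fgb and Fgg, normally of liver, rose by log2 1.22 ± 0.33 and 1.04 ± 0.30 (adjusted p = 0.0215 and 0.0272). Fgb was lowest at 0 and highest at 107 with vehicle, and ran from 7.68 to 139 with parabens. Without the 7, Fgb and Fgg differed by 0.63 and 0.49. The adipocyte receptor gene Adrb3 rose by 1.17 ± 0.38 (adjusted p = 0.0457). Adrb3 and Cdo1 (log2 1.05) had their highest values, 173 and 714, in methylparaben replicate 5. Tppp, a tubulin-binding protein, rose by 0.98 ± 0.24 (adjusted p = 0.0159) and kept 0.73 without the 7. Of the 30 genes chosen for the largest changes, 22 lost their call with at least 1 library left out, Fgb (0.0555 without vehicle replicate 8), Fgg, Adrb3, Cdo1, Sox11 and Tlx1 among them.

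Most lists of stroma and neighboring tissue had medians above 0, though few or no members passed. Fibroblast markers had a median log2 fold change of 0.55 over 12 genes, of which 2 rose, the matrix proteoglycan gene Dcn (0.77 ± 0.22, adjusted p = 0.0270) and Pdgfra. The mean log2 level of the fibroblast markers ran from 3.76 to 7.05 with vehicle and from 4.90 to 7.13 with parabens, and the median fold change without the 7 libraries was 0.16. Adipocyte markers had a median of 1.08 over 11 tested genes (0.57 without the 7), yet none passed: their mean level ran from 1.57 to 5.17 with vehicle and from 1.68 to 9.28 with parabens. Skeletal muscle markers had a median of 1.03 over 11 genes (0.50 without the 7), with means from 0.701 to 6.07 and from 0.509 to 9.12, and none passed. B and plasma cell markers had a median of 0.70 (0.39 without the 7) over the 5 tested of 9, none passing, and Cd79a, Cd79b and Mzb1 were among those that averaged under 1. No marker of the 14 cell and tissue lists was at 0 in every library. Endothelial genes had a median of 0.24, with Tek and Robo4 rising by 0.62 and 0.50 (adjusted p = 0.0214 and 0.0248), and their median was 0.25 without the 7. Macrophage markers had medians of 0.23 and -0.09 with and without the 7, and T cell markers of 0.02 and -0.03, with none passing in either list. Luminal epithelium markers stood at 0.05 and basal markers at 0.50 (0.06 and 0.28 without the 7), where Krt19 and Trp63 rose. Dcn, Tek, Robo4, Krt19 and Trp63 lost their calls with some library left out (adjusted p up to 0.0734, 0.0505, 0.0622, 0.0826 and 0.0963). With the mean levels of the adipocyte, muscle, B cell, T cell, macrophage and fibroblast lists as covariates, no gene passed in limma. The genes that had passed then had medians of 0.24 (501 that rose) and -0.18 (509 that fell), against 0.45 and -0.33.

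**Figure D3:**
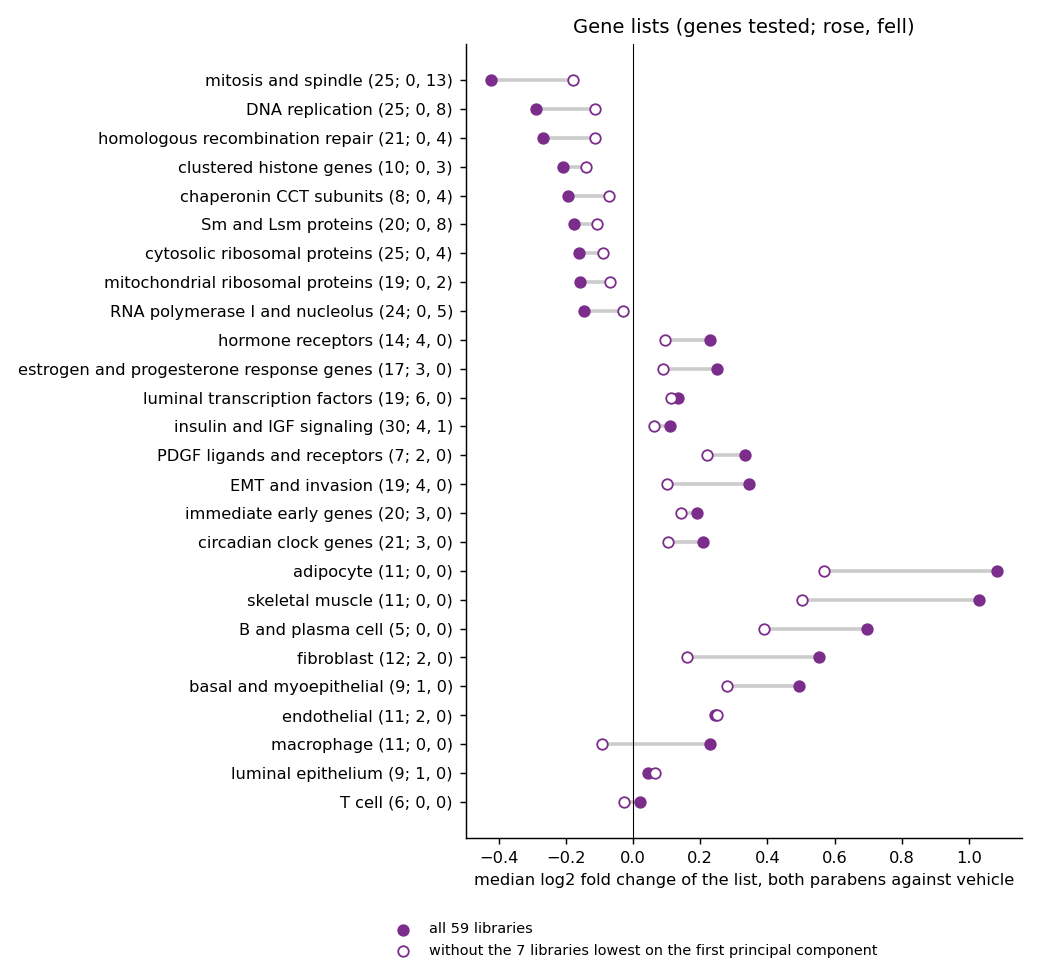
Each row is a gene list with the number of genes tested and the numbers that rose and fell. Filled points give the median log2 fold change of both parabens against vehicle in all 59 libraries, and open points the same without the 7 set-apart libraries; most open points lie nearer to 0, and of the lists drawn the macrophage and T cell medians change sign.

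Other lists held a few passing genes or none, where 3.46% of all tested genes rose and 3.51% fell. Of 19 genes of epithelial-mesenchymal transition Cdh2, Snai2, Tgfbr1 and Tgfbr2 rose (log2 0.68, 0.48, 0.34 and 0.42) and none fell, with a median of 0.34, and 0.10 without the 7. Each of these 4 lost its call with some library left out, with adjusted p up to 0.0720, 0.115, 0.0615 and 0.0546. Of 20 immediate early genes Jun (0.37 ± 0.09, adjusted p = 0.0159), Fosl2 and Dusp1 rose (0.25, 0.21 and 0.27 without the 7). Of 21 clock genes Arntl, Rora and Hlf rose, by 0.39, 0.49 and 0.35 (0.20, 0.24 and 0.17 without the 7), and Arntl and Hlf lost their calls with some library left out (adjusted p up to 0.0601 and 0.0963). Of 14 glucocorticoid receptor targets Klf9 (0.39 ± 0.08, adjusted p = 0.0111), Tsc22d3 and Dusp1 rose, while Ddit4 fell by 0.40. Tsc22d3, Dusp1 and Ddit4 lost their calls with some library left out (adjusted p up to 0.0809, 0.0827 and 0.0723). Of 22 hypoxia and glycolysis genes Egln3, Car9, Vegfa and Eno1 fell, by 0.68, 0.60, 0.67 and 0.43, and none rose. The list median was -0.07, and 0.03 without the 7, and 6 of the 22 had fold changes above 0. Egln3 alone of these 4 passed in all 59 fits with 1 library left out, and its difference was -0.30 without the 7. Of 20 p53 targets Bax and Gdf15 fell, by 0.52 and 0.79, and by 0.30 and 0.50 without the 7. Of 14 antigen presentation genes the class II genes Cd74 and H2-Ab1 rose (0.51 and 0.45), and all 7 low libraries were the 7 lowest for H2-Ab1, whose difference without them was 0.06. Cd74 differed by 0.09 without them, and both lost their calls with some library left out (adjusted p up to 0.0899 and 0.101). None of 23 interferon-stimulated genes passed, with a median of 0.01, and 0.12 without the 7.

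Intronic reads, which come largely from unspliced RNA, were tested as a second measure on the same libraries. Of 14281 genes with tested introns 48 passed (0.336%), 37 higher (0.259%) and 11 lower (0.0770%). Of the 48, 26 belonged to genes that passed at gene level, all in the same direction. Of the genes that passed at gene level, 868 had tested introns. Intron fold changes were above 0 for 418 of 445 that rose (median 0.30, against 0.43 at gene level). They were below 0 for 400 of 423 that fell (median -0.25, against -0.32). Over all tested introns 50.3% had fold changes above 0. The genes were picked in these same libraries, so likeness of sign is partly built in. Arhgef6 introns rose by log2 0.71 ± 0.14 (adjusted p = 0.0246), Camk2d by 0.38 ± 0.09 (adjusted p = 0.0478), and Kifc5b introns fell by 0.84 ± 0.18 (adjusted p = 0.0280). Esr1 and Gata3 introns differed by 0.54 and 0.48 without passing (adjusted p = 0.107 and 0.0665). Cdk4 had few intronic reads (5.63 ± 5.32 with vehicle) and an intron difference of -0.12 ± 0.33. Without the 7 the intron differences of Irs1, Arhgef6, Camk2d, Kifc5b and Cdk4 were 0.41, 0.26, 0.18, -0.56 and 0.06, that of Cdk4 with the other sign. The test of gene level against intron level passed for 0 of 6667 genes with limma (540 at an unadjusted p under 0.05, smallest adjusted p of 0.0695). The intron count was the less stable one: it was 0 without any one of vehicle replicates 8, 10, 14 and 19, and 0 without the 7.

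**Figure D4:**
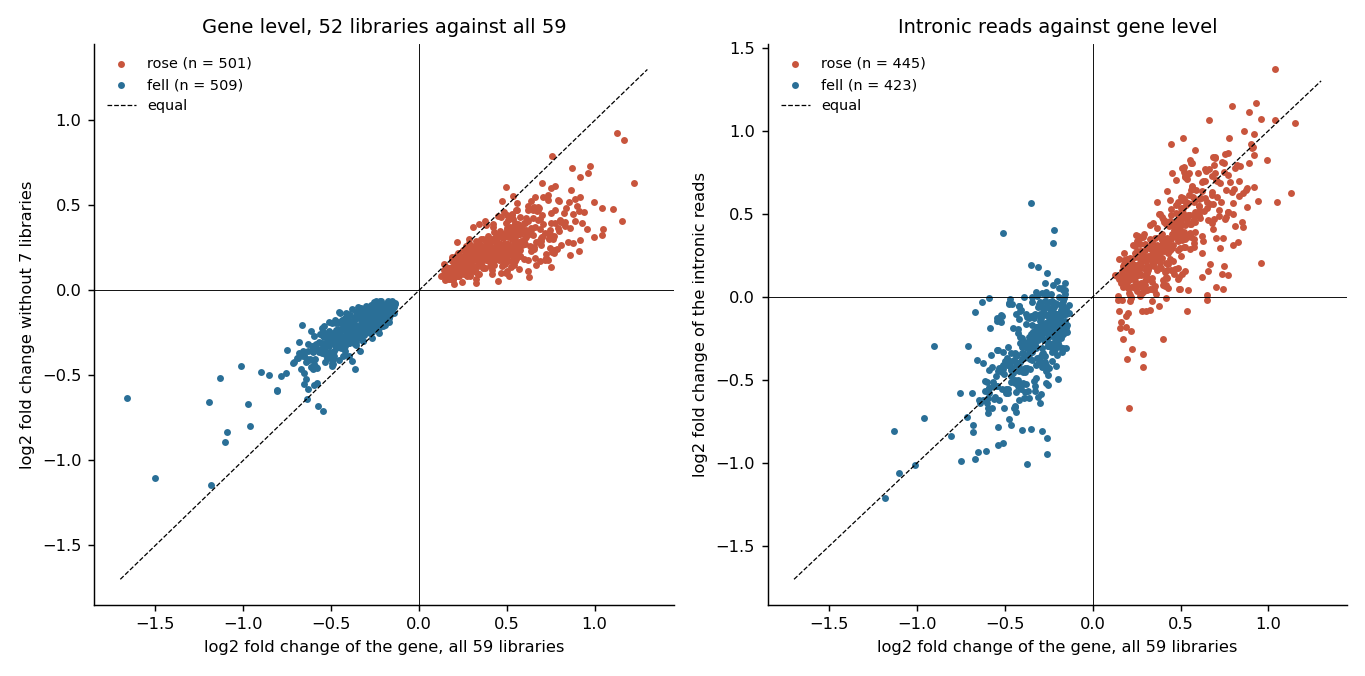
Points are genes that passed at gene level, red where they rose and blue where they fell, with the log2 fold change in all 59 libraries on the x axis. The y axis shows the fold change without the 7 libraries (left, 1010 genes) and of intronic reads (right, 868 genes); on the left all points keep their sign and most lie nearer to 0 than the dashed line of equal values.

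The number of passing genes turned on a few libraries, most of them vehicle. Leaving out 1 library at a time gave 268 to 1821 passing genes. The count fell to 268, 324, 335, 464, 494 and 599 without vehicle replicates 10, 14, 8, 7, 19 and 1, and rose to 1821, 1543 and 1536 without vehicle replicate 5, propylparaben replicate 1 and vehicle replicate 11. Without the 7 libraries all 501 genes that rose stayed above 0 and all 509 that fell stayed below, in a fit on 52 of the same 59 libraries. Medians went from 0.45 to 0.23 and from -0.33 to -0.20. The median gene kept 59.4% of its log2 fold change, 140 of the 1010 kept at least 80%, and 500 had an unadjusted p under 0.05. Creb3l1, a membrane-bound factor of collagen secretion, differed by 0.53 with and 0.56 without the 7, and Unc45b, a myosin chaperone, by 0.76 and 0.79; both were picked from the smallest p of the fit without the 7.

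**Figure D5:**
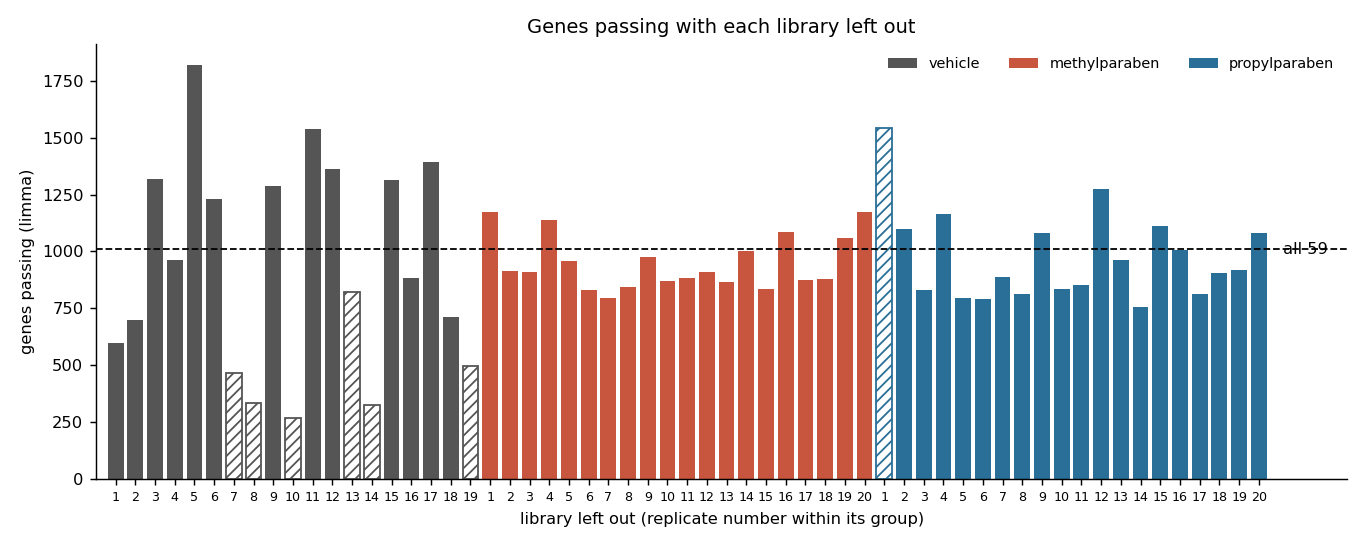
Bars give the number of genes passing in limma with the library on the x axis left out, in vehicle, methylparaben and propylparaben order, and hatched bars are the 7 set-apart libraries. The dashed line is the count with all 59, 1010; the lowest bar is 268 without vehicle replicate 10 and the highest 1821 without vehicle replicate 5.

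Each ester was also set against the same 19 vehicle libraries, so their values share controls and are given side by side only. In a fit with 1 mean per group, 191 genes passed for methylparaben (1.32%) and 4 for propylparaben (0.0276%), against 984 for the average of both esters. Fitted without the other ester's libraries, methylparaben gave 2 genes and propylparaben 0. Irs1 differed by 0.72 and 0.64 (methylparaben, propylparaben), Esr1 by 0.88 and 0.87, Gata3 by 0.56 and 0.49, Cdk4 by -0.40 and -0.35, Ccnb1 by -0.63 and -0.51 and Rcor2 by -1.19 and -1.19. Tested directly, propylparaben against methylparaben passed for 0 of 14487 genes with limma (311 at an unadjusted p under 0.05, smallest adjusted p of 0.238) and for 21 with edgeR, none of which passed in the pooled comparison. For Irs1 the propylparaben minus methylparaben difference was -0.07 (95% interval -0.33 to 0.18), for Esr1 -0.02 (-0.47 to 0.43) and for Cdk4 0.06 (-0.11 to 0.22). These intervals leave room for differences between the esters of up to about the sizes of their bounds.

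Vehicle tumors also varied more among themselves. The main fit used the same spread for both sides of a gene. Where the smaller vehicle side spread more, as for Gata3 and Ppp3ca below, its SEs and p-values can be too low. The SD of the log2 level was larger in vehicle than in both ester groups for 7521 of 14487 genes (51.9%), largest in methylparaben for 27.5% and in propylparaben for 20.5%. Tested as absolute deviations from the group median, 29 genes (0.200%) had a smaller spread with parabens and none a larger one (97 genes had a larger spread at an unadjusted p under 0.05). Gata3 led, with an SD of 0.68 in vehicle, 0.21 in methylparaben and 0.30 in propylparaben (adjusted p = 0.00889). Ppp3ca followed, with SDs of 0.49, 0.15 and 0.20 (adjusted p = 0.00889), then Car8, a carbonic anhydrase-related protein gene, with 1.09, 0.51 and 0.38 (adjusted p = 0.0131). Without the 7 libraries 0 genes passed this test.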

How the data were processed

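RNA-seq of 59 tumors was deposited as normalized counts per gene and per gene's introns. Per the submitters' processing notes, bcl2fastq 2.20.0.422, STAR 2.6.1d and HTSeq 0.10.0 were used with GRCm38; for the annotation, strand setting and normalization tool the sources used here name nothing. The deposited signal values are read counts scaled for depth and by a factor per library, and 100% came out as whole reads within 1e-06 of a read, so read counts were recovered for the count tests. Features averaging 1 or more were tested on log2(value + 1) with limma 3.58.1 in R 4.3.3, parabens against vehicle over all 59 libraries with no covariate, with Benjamini-Hochberg adjustment over all tested features. Spread was tested as the absolute deviation from the group median. edgeR 4.0.16 and DESeq2 1.42.0 were run on the recovered reads. The scripts were tested on simulated data. Named genes were the 15 called genes with the largest change in each direction, the 8 with the smallest p in each direction, up to 4 called members per list and direction, leading introns and spread genes, and a set of named genes whatever their values; others are said to be chosen after their values were seen. The comparison and gene lists were chosen with earlier results of these data known. Alternatives changed the pseudocount, filter, scaling, weights, tool, covariates and libraries. Depth limits low genes, and intervals cover the fitted spread only. Some genes counted in the lists are not reported here by name.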

Additional observations from a re-analysis of the deposited data

How the results depend on the processing

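Of 14631 alternative values of single genes and introns, 12280 kept their side of the threshold, 2278 no longer passed and 73 newly passed. In 32 the sign changed, all for genes or introns that passed neither with all libraries nor under the alternative. The gene count of 1010 became 420 with no filter, 312 with a mean of at least 100, 355 with array weights, 342 without 5 libraries of low scaling factor, 2 with methylparaben alone, 0 with propylparaben alone, 0 with tissue scores and 0 without the 7 libraries lowest on the first component. Leaving out 1 library gave 268 to 1821 genes and 0 to 320 introns. The intron count of 48 became 18 with a pseudocount of 0.5, 15 with no filter, 96 with a mean of at least 100, 18 with median-of-ratios scaling, 30 with quantile normalization (18 higher and 12 lower), 17 with 1 mean per ester, 17 with array weights, 14 with robust fitting, 165 with edgeR (49 higher and 116 lower), 310 with DESeq2, 13 with tumor number and 299 with reads outside features as covariates. It was 0 with methylparaben alone, propylparaben alone, tissue scores, without the 7, and without the low scaling factors. The ester difference of 0 genes became 21 with edgeR. The spread count of 29 became 191 with deviations from the mean and 0 without the 7. The causes of these changes in count were not tested. No paired analysis was possible because nothing links libraries of different groups and the replicate numbers follow record order.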

Other observations

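The 21 genes that edgeR called between the esters, 20 lower and 1 higher with propylparaben, included the brown fat genes Ucp1 (log2 -8.13, adjusted p = 0.000738) and Cidea (-4.67, adjusted p = 0.0012) and the skin keratin gene Krt10 (-2.16, adjusted p = 0.0117). The cartilage matrix gene Comp was the one higher (3.19, adjusted p = 0.0372). Over the paraben libraries, the mean log2 level of the brown fat markers had a median of 1.47 and a highest value of 7.79. That of the skin markers had a median of 1.82 and a highest value of 5.95. The part of single libraries in the ester differences was not tested.

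Some introns passed in limma where the gene did not. Introns of Prdm16, a transcription factor of brown fat, rose by log2 1.296 (adjusted p = 0.0358) and those of Sncaip by 0.84 (adjusted p = 0.0437). Introns of Slc38a7, an amino acid transporter, fell by 0.76 (adjusted p = 0.0358).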
